A study of Dicosmoecus gilvipes with 20 samples.

Results

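The data described here concern 2 metabolic enzymes of the caddisfly *Dicosmoecus gilvipes*, protein henna and PGM (phosphoglucomutase), in thorax RNA of larvae held at 4 temperatures. The members are all contigs of 2 subcomponents of the authors' Trinity assembly, comp64492_c0 with 9 contigs (protein henna) and comp63948_c2 with 7 contigs (PGM). They make up 16 of the 135858 contigs of the assembly. A subcomponent is a set of contigs that the assembler built from overlapping sequence, such as alternative transcripts of a gene. The study listed 1 contig of each subcomponent among its thermally responsive targets, comp64492_c0_seq6 as rising and comp63948_c2_seq1 as falling, and it chose them on these same libraries. Values of those contigs, and of sums that hold them, are therefore given as a description with no test.

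Protein henna is the insect form of phenylalanine hydroxylase. It converts phenylalanine to tyrosine with a tetrahydrobiopterin cofactor, and in *Drosophila* it is also known to hydroxylate tryptophan. Tyrosine feeds the catecholamines and the pigments and cross-links of the cuticle, and the rest of it is broken down by way of homogentisate. Phosphoglucomutase interconverts glucose 1-phosphate and glucose 6-phosphate, and so stands between glycogen or trehalose and glycolysis.

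The libraries were made from final instar larvae of a wild population, which were kept in common conditions, warmed in tanks over several days and then held for a day at 15.5, 20, 25 or 28.6°C. Each temperature has 5 libraries and there are 20 libraries in all, with no other treatment. By the methods of the study, thorax RNA of all larvae of a temperature went into each of 5 pools, so its 5 libraries hold the same animals. Spread between libraries, and every p value below, thus leaves out variation between animals, and cell number and RNA per cell cannot be told apart in such bulk tissue. Depth was between 6756103 and 14236152 estimated counts per library. In replicates 1 and 4 of 20°C, 45.0% and 77.0% of these fell on 10 contigs that resemble ribosomal RNA, against at most 15.1% in the other 18 libraries. These contigs were left out before scaling, which left 2485595 counts in the shallowest library (replicate 4 of 20°C). A muscle marker list, most of its counts on a subcomponent annotated as troponin I, the calcium switch subunit of the thin filament, summed to between 2607 and 4387 CPM in every library, and 2 digestive tract markers, alpha-amylase and chymotrypsin, to between 76.7 and 567 CPM. CPM are counts per 1000000 counts of the TMM-scaled library size.

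The subcomponent named for protein henna holds matches to 2 different proteins. In the annotation deposited by the authors, seq1, seq2, seq6 and seq7 match protein henna of *Drosophila melanogaster*, while seq3 and seq9 match mouse apolipoprotein D, a lipocalin that carries small lipophilic molecules. The match of seq6, 2994 bases long, covers residues 9 to 450 of the fly protein at 68.1% identity, from base 342 to base 1658 of the contig. The lipocalin matches had 30.11% and 30.73% identity and ran in the opposite direction along their contigs. The unannotated contigs seq4, seq5 and seq8 shared a bundle with seq6, meaning that reads linked them, in 19, 14 and 20 of the 20 libraries. Contigs seq3 and seq9 shared a bundle with each other in 20 of 20 libraries and with seq6 in 0 of 20. The contigs are therefore described as 7 henna-like contigs (seq1, seq2 and seq4 to seq8), with 80.2% of the subcomponent's estimated counts, and 2 apolipoprotein D-like contigs, with 19.8%. This division was made after the annotation and the bundles had been seen. The bundle of seq3 and seq9 was free of contigs of other subcomponents in only 2 of 20 libraries. Elsewhere reads also linked the pair to such contigs, and 54.0% of its estimated counts were unique.

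Transcripts of protein henna were lowest at 20°C, highest at 25°C and intermediate at 28.6°C. The 7 henna-like contigs summed to 85.0, 90.7, 93.3, 96.9 and 88.7 CPM in the 5 libraries of 15.5°C. They summed to 60.4, 68.0, 70.3, 57.2 and 65.0 CPM at 20°C. At 25°C the libraries held 343.8, 306.2, 327.8, 334.5 and 318.4 CPM. All 5 libraries of 25°C thus lay above all others. At 28.6°C the sum was 153.6, 169.5, 186.9, 205.9 and 187.6 CPM. No library of any temperature overlapped with a library of another, and the order from low to high was 20, 15.5, 28.6 and 25°C.

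Relative to 15.5°C, the summed henna-like counts were 3.63-fold higher at 25°C (log2 fold change 1.86, SE, the standard error, 0.06, n = 5 libraries a temperature) and 1.97-fold higher at 28.6°C (log2 fold change 0.98, SE 0.06). At 20°C they were lower by a log2 fold change of -0.45 (SE 0.07). From 25 to 28.6°C the log2 fold change was -0.88 (SE 0.06), a fold change of 0.544. The reads of a contig before any division between contigs showed the same order. All reads that map to seq6 at all, its total count, averaged 88.6 ± 4.41, 61.9 ± 5.46, 321.1 ± 14.6 and 178.6 ± 19.5 CPM from the coolest to the warmest temperature (SD, n = 5). These reads include those that map to several contigs. Only 159 of 27560 estimated henna-like counts were unique to 1 contig, all of them on seq4, seq5 and seq8, and on those alone the log2 fold change against 15.5°C was 0.73 at 20°C (SE 0.33), 0.0033 at 25°C (SE 0.22) and -0.03 at 28.6°C (SE 0.37). The peak at 25°C was thus not seen in the few unique reads.

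Many other subcomponents differed between temperatures in these libraries, which sets the background for such counts. Among the 15218 subcomponents retained, the libraries of 28.6 and 15.5°C did not overlap and were higher at 28.6°C in 29.1%. The same held for 25.0% at 25°C against 15.5°C, 15.6% at 25°C against 20°C and 25.6% at 28.6°C against 20°C. Libraries did not overlap and were lower in 21.4% at 20°C against 15.5°C and in 19.5% at 28.6°C against 25°C. For single contigs, of which 30413 were retained, the share with no overlap was 19.1% in the higher and 18.7% in the lower direction at 28.6°C against 15.5°C, and 15.6% and 16.3% at 25°C. It was 10.5% and 12.2% at 20°C against 15.5°C, 9.18% higher at 25°C against 20°C, 16.0% higher at 28.6°C against 20°C, and 12.3% lower and 13.1% higher at 28.6°C against 25°C.

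**Figure D1:**
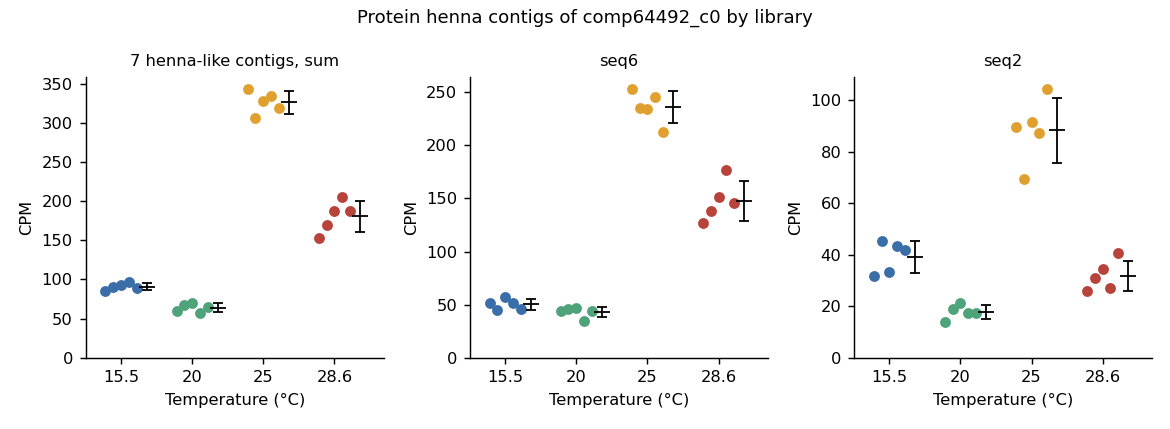
CPM of the 7 henna-like contigs summed, of seq6 and of seq2, by temperature (°C). Each point is a library (5 a temperature, left to right replicates 1 to 5), and the bar to the right of the points is the mean ± SD. The sum lies between 306.2 and 343.8 CPM at 25°C, above all libraries of the other temperatures. Against 15.5°C, seq2 is lower at 20°C where seq6 overlaps, and overlaps at 28.6°C where seq6 is higher. These are estimated counts, and before reads were divided both contigs had the same order of temperatures.

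The target contig seq6 held 57.3% of the counts of the subcomponent over all libraries. Its level was 51.7, 45.0, 57.1, 51.7 and 46.1 CPM at 15.5°C. It was 44.4, 45.5, 47.3, 34.7 and 44.5 CPM at 20°C. Libraries of these cooler temperatures overlapped. The level was 253.1, 235.2, 234.5, 245.9 and 212.9 CPM at 25°C. At 28.6°C it was 126.8, 138.3, 151.2, 176.7 and 145.8 CPM, above every library of 15.5 and 20°C and below every library of 25°C. The log2 fold change of seq6 against 15.5°C was 2.23 at 25°C (SE 0.09) and 1.55 at 28.6°C (SE 0.09), which is 4.68-fold and 2.93-fold. At 20°C it was -0.21 (SE 0.09).

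Contig seq2, with 22.1% of the counts, is 11 bases shorter than seq6. In estimated counts relative to 15.5°C it followed another course at 20 and 28.6°C, and its rise at 25°C was smaller. Its total count, before any division, followed that of seq6. The log2 ratio of mean total counts to 15.5°C was -0.53, 1.83 and 0.97 at 20, 25 and 28.6°C for seq2. For seq6 it was -0.52, 1.86 and 1.01. The separate course of seq2 thus lay in the division of shared reads. In estimated counts seq2 was at 31.6, 45.2, 33.3, 43.3 and 41.7 CPM at 15.5°C. It was 13.9, 19.0, 21.2, 17.6 and 17.3 CPM at 20°C, below every library of 15.5°C. The libraries of 25°C held 89.5, 69.3, 91.6, 87.1 and 104.4 CPM and lay above all others. At 28.6°C the level was 25.9, 31.1, 34.3, 27.0 and 40.5 CPM, and the libraries overlapped with those of 15.5°C. By the quasi-likelihood test of edgeR, Benjamini-Hochberg adjusted over 30413 contigs, seq2 was higher at 25°C than at 15.5°C (log2 fold change 1.17, SE 0.14, adjusted p = 1.5e-06) and lower at 20°C (-1.12, SE 0.15, adjusted p = 6.8e-06). At 28.6°C against 15.5°C its log2 fold change was -0.30 (SE 0.14, edgeR adjusted p = 0.0916). This difference passed the threshold without TMM factors (-0.47, edgeR adjusted p = 0.0116), without replicate 1 of 15.5°C (-0.37, edgeR adjusted p = 0.045) and without replicate 5 of 28.6°C (-0.39, adjusted p = 0.0309). By the adjusted p, 19.0% of all contigs were higher at 25°C and 13.9% lower at 20°C against 15.5°C, and 22.6% lower at 28.6°C. The reads of seq2 are shared with seq6, so these tests are not independent of the choice of seq6. The study had also listed seq2 among the transcripts it called as changed in these same libraries.

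The difference between seq6 and seq2 rests on few reads. Neither had a read of its own in any library, and the counting program marked both as not solvable in 20 of 20 libraries. Contig seq6 is 11 bases longer than seq2, and seq7 (1430 bases) is 11 bases longer than seq1 (1419 bases). In both pairs the match to the fly protein begins 11 bases later in the longer contig, so the added bases lie ahead of the matched region. In every library the longer contig of both pairs had the same number of reads in excess of the shorter, from -1 to 17 in the libraries of 15.5°C, 3 to 11 in those of 20°C, 54 to 102 in those of 25°C and 37 to 69 in those of 28.6°C. Pooled over the libraries of a temperature, this excess was 42 of 4543 reads that map to seq6 at 15.5°C (0.924%), 34 of 1917 at 20°C (1.77%), 353 of 13452 at 25°C (2.62%) and 276 of 7167 at 28.6°C (3.85%). The share of henna-like counts that the program assigned to seq6 was 55.4 ± 5.28%, 67.4 ± 4.61%, 72.5 ± 3.66% and 81.7 ± 2.90% in the same order of temperatures (SD, n = 5). Both measures were thus lowest at 15.5°C and highest at 28.6°C, and neither followed the level of the sum, which was highest at 25°C. The libraries of 28.6°C held 77.8% to 85.8% in seq6 and did not overlap with those of 15.5°C, at 49.6% to 61.1%.

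**Figure D2:**
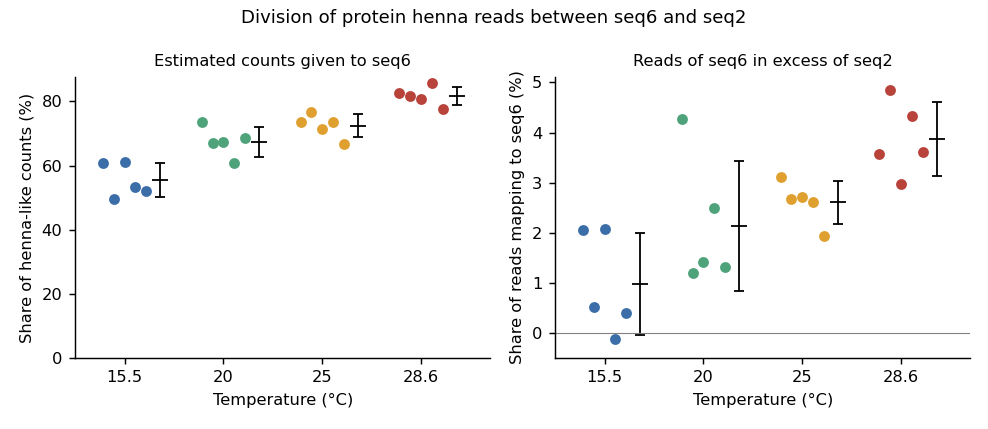
Left, percent of the estimated henna-like counts that were assigned to seq6. Right, reads that map to seq6 in excess of those that map to seq2, as percent of all reads that map to seq6. Points are libraries by temperature (°C), 5 each, with the mean ± SD beside them. Assigned shares run from 49.6% to 61.1% at 15.5°C and from 77.8% to 85.8% at 28.6°C, while the excess of reads behind them is at most 4.86% in every library.

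The other 5 henna-like contigs were near or below detection and did not pass the filter of 2 CPM in 4 libraries. Contigs seq1 and seq7, whose match stops at residue 371 of the fly protein at 70.25% identity, held at most 0.2 and 4.0 estimated counts in a library. Contigs seq4, seq5 and seq8 held at most 17.0, 6.0 and 15.4. Thus 4 of the 9 contigs of the subcomponent were retained. Contig seq9 is in the counts that follow, though it passed the filter through 20°C alone. It averaged 0.94 CPM at 28.6°C and 0.93 CPM at 15.5°C, so its failure to pass there carries no information. Of the 3 besides seq6, 0 passed an adjusted p of 0.05 at 28.6°C against 15.5°C in edgeR's quasi-likelihood test, 1 had an unadjusted p below 0.05 there and in DESeq2, and 0 passed the adjustment in DESeq2 or in edgeR's likelihood ratio test. Of the 3, seq2 and seq3 passed it without TMM factors, seq3 without replicates 1 and 4 of 20°C, and seq2 when either of 2 single libraries was left out, as given with each. In the background, 23.4% of contigs were higher and 22.6% lower by an adjusted p of 0.05 in that comparison.

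The 2 apolipoprotein D-like contigs were high and low at other temperatures than protein henna, and at temperatures unlike each other. Contig seq9, with 5.72% of the counts and described here because of its values, was high at 20°C alone, with 45.2, 70.1, 62.7, 44.0 and 66.0 CPM. Its range was 0.47 to 1.57 CPM in the libraries of 15.5°C, 0.22 to 0.82 CPM in those of 25°C and 0 to 1.76 CPM in those of 28.6°C. The libraries of 20°C lay far above all others. This contig passed the filter of 2 CPM in 4 libraries through 20°C alone, where it had to be high, and so its values are given with no test. The mean was 57.6 ± 12.2 CPM at 20°C and 0.93 ± 0.48 CPM at 15.5°C (SD, n = 5), where it had between 4 and 13 estimated counts a library. Reads unique to seq9 numbered 1017 at 20°C and 47 at 15.5°C.

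Contig seq3, with 14.1% of the counts, was lowest at 25°C, where protein henna was highest. It was 41.8, 42.9, 43.0, 41.4 and 41.8 CPM at 15.5°C. It was 19.4, 26.9, 23.8, 31.0 and 29.6 CPM at 20°C. The libraries of 25°C held 8.56, 8.76, 9.01, 9.48 and 8.84 CPM, below all others. At 28.6°C it was back at 40.8, 35.3, 38.7, 39.8 and 35.1 CPM, just below the libraries of 15.5°C. The log2 fold change was -2.21 at 25°C against 15.5°C (SE 0.10, adjusted p = 1.2e-12 from edgeR) and 2.06 at 28.6°C against 25°C (SE 0.10, adjusted p = 4.4e-12). By both criteria 2.29% of contigs were called lower in the former comparison and 2.83% higher in the latter. The study had listed seq3 among the transcripts it called as changed in these libraries, so these tests are not independent of that choice. The log2 fold change at 28.6°C relative to 15.5°C was -0.15 (SE 0.09, edgeR adjusted p = 0.186), and the libraries did not overlap, as in 18.7% of contigs in the lower direction. It passed the threshold without replicates 1 and 4 of 20°C (-0.17, edgeR adjusted p = 0.0388) and without TMM factors (-0.33, adjusted p = 0.0119).

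These contigs enter any sum over the subcomponent. The pair made up 32.2 ± 1.05%, 56.4 ± 3.12%, 2.79 ± 0.19% and 17.8 ± 2.04% of its counts from the coolest to the warmest temperature (SD, n = 5). Summed over all 9 contigs, the level was 128.0, 134.4, 136.8, 139.9 and 131.1 CPM at 15.5°C and 125.0, 165.0, 156.8, 132.2 and 160.6 CPM at 20°C, and these libraries overlapped. At 25°C the sum was 352.7, 315.8, 337.1, 344.3 and 327.4 CPM, and at 28.6°C it was 195.4, 205.4, 225.6, 247.0 and 224.4 CPM. The lower level of the henna-like contigs at 20°C was not visible in it, with a log2 fold change of 0.19 (SE 0.07) where the henna-like sum had -0.45. At 28.6°C against 15.5°C the whole sum gave 0.70 (SE 0.06) and the henna-like sum 0.98. With unique counts the whole sum gave -0.16, but 3684 of its 3843 unique counts lay on the apolipoprotein D-like pair. The 8 contigs besides seq6 summed to 76.3, 89.4, 79.7, 88.2 and 85.0 CPM at 15.5°C and to 68.6, 67.1, 74.5, 70.3 and 78.6 CPM at 28.6°C, where they were lower by -0.23 (SE 0.08, adjusted p = 0.0143 by edgeR, Benjamini-Hochberg) with overlapping libraries. Among subcomponents, 35.5% were lower by that criterion. The call was lost with effective counts (-0.27, edgeR adjusted p = 0.193) and with unique counts (-0.16, edgeR adjusted p = 0.0897). It was lost too with the longest mapped position, by which the libraries form 2 sets, as a covariate (-0.21, edgeR adjusted p = 0.0515). The 2 apolipoprotein D-like contigs alone did not pass either (-0.16, edgeR adjusted p = 0.0582). Unique counts lay mostly on that pair, so the alternatives with unique counts and with the pair alone overlap. The 8 contigs include ones that the study had called as changed in these libraries.

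**Figure D3:**
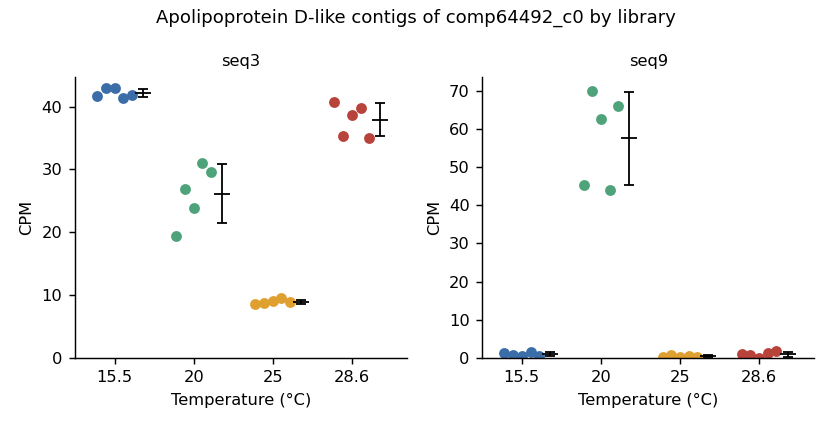
CPM of the apolipoprotein D-like contigs seq3 and seq9 of comp64492_c0 by temperature (°C). Each point is a library, 5 a temperature, with the mean ± SD to the right. Contig seq9 lies between 44.0 and 70.1 CPM at 20°C and at or below 1.76 CPM elsewhere, while seq3 is lowest at 25°C, between 8.56 and 9.48 CPM.

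Transcripts of PGM were lower at each higher temperature. The 7 contigs of comp63948_c2 summed to 99.2, 105.4, 97.9, 100.7 and 99.0 CPM at 15.5°C. At 20°C they summed to 77.6, 70.6, 72.8, 77.2 and 74.3 CPM. The libraries of 25°C held 68.2, 69.3, 65.8, 62.9 and 65.4 CPM. The step between these temperatures was small and its libraries did not overlap. At 28.6°C the sum was 44.9, 48.5, 50.3, 53.2 and 46.8 CPM. Libraries thus did not overlap at any of the 3 steps, and the mean at 28.6°C was 48.5% of that at 15.5°C. Of 15218 subcomponents, 138 (0.907%) were lower at each of the 3 steps with no overlap.

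Against 15.5°C the log2 fold change of the PGM sum was -0.40 at 20°C, -0.58 at 25°C and -1.05 at 28.6°C (SE 0.05 each). Between 20 and 25°C it was -0.18 (SE 0.05), and this step turned to 0.20 without TMM factors, where the median of all subcomponents moved by 0.35, and to 0.01 with unique counts. Of the 399 unique counts, 398 lay on the short contig seq2, so that value describes seq2 more than the sum. From 25 to 28.6°C the log2 fold change of the sum was -0.47 (SE 0.05). Libraries did not overlap and were lower in 27.8% of subcomponents at 28.6°C against 15.5°C, in 27.0% at 25°C against 15.5°C, and in 14.9% at 25°C against 20°C. All reads that map to the longest contig, seq7, averaged 96.5 ± 2.94, 71.5 ± 3.59, 63.0 ± 2.86 and 45.5 ± 3.33 CPM from the coolest to the warmest temperature (SD, n = 5), the same order as the sum. The contigs other than seq1 summed to 87.7, 94.7, 89.7, 95.0 and 88.4 CPM at 15.5°C and to 40.7, 38.8, 44.0, 49.9 and 40.1 CPM at 28.6°C. Their log2 fold change was -1.10 (SE 0.06, adjusted p = 1.7e-16 by edgeR, Benjamini-Hochberg). They share reads with seq1, so this test is not independent of its choice.

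**Figure D4:**
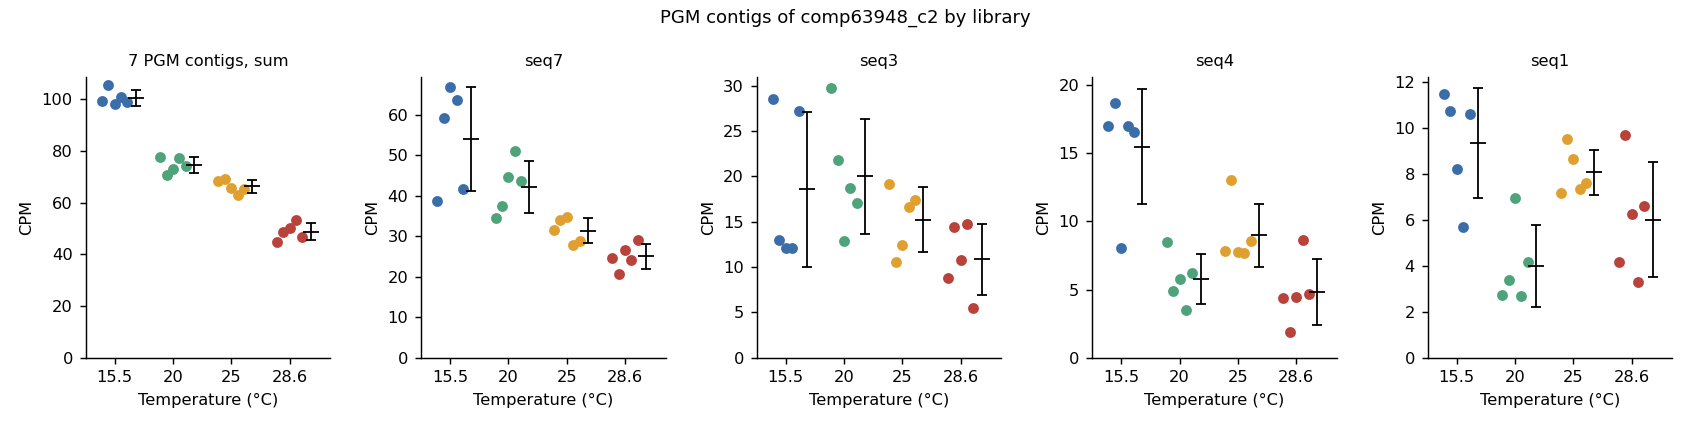
CPM of the 7 PGM contigs summed and of seq7, seq3, seq4 and seq1, by temperature (°C). Each point is a library, 5 a temperature, with the mean ± SD to the right, and each panel has its own axis from 0. The sum lies at 97.9 to 105.4 CPM at 15.5°C and at 44.9 to 53.2 CPM at 28.6°C with little spread, while single contigs spread widely within a temperature. The step of the sum from 20 to 25°C turns upward without TMM factors. With unique counts, nearly all of which lie on contig seq2, its log2 fold change is 0.01.

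The target contig, seq1, showed that order least clearly. It held 9.88% of the counts of the subcomponent, and the program assigned to it 13.5% of the 8926 reads that map to it. Its level was 11.5, 10.7, 8.21, 5.70 and 10.6 CPM at 15.5°C. It was 2.72, 3.37, 6.97, 2.69 and 4.18 CPM at 20°C, overlapping with 15.5°C. At 25°C it was 7.19, 9.51, 8.64, 7.36 and 7.62 CPM, above all libraries of 20°C. At 28.6°C it was 4.18, 9.70, 6.26, 3.31 and 6.62 CPM and overlapped with all other temperatures. The log2 fold change was -0.61 at 28.6°C against 15.5°C (SE 0.27), -0.22 at 25°C (0.27) and -1.16 at 20°C (0.28). Its share of the PGM counts was 9.30 ± 2.35%, 5.39 ± 2.51%, 12.2 ± 1.27% and 12.4 ± 5.21% from the coolest to the warmest temperature (SD, n = 5). The total count of seq1, which is not divided, averaged 73.9 ± 3.72, 53.6 ± 2.84, 48.0 ± 2.42 and 36.8 ± 3.21 CPM from the coolest to the warmest temperature, and had the order of the sum.

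Of the 6 other PGM contigs, seq7, seq4 and seq3 were lower at 28.6°C than at 15.5°C by the adjusted p, the last by a small margin. Over all 20 libraries seq3 and seq4 had 0 unique reads and seq7 had 1, so these calls rest on how shared reads were divided. Contig seq7 (2907 bases) held 52.2% of the counts, at 38.7, 59.1, 66.8, 63.7 and 41.8 CPM at 15.5°C. It held 34.4, 37.6, 44.6, 51.0 and 43.5 CPM at 20°C, overlapping with the libraries before. It held 31.5, 34.0, 34.7, 27.9 and 28.8 CPM at 25°C and 24.6, 20.6, 26.7, 24.1 and 29.1 CPM at 28.6°C. Every library of 25 and 28.6°C lay below every library of 15.5°C. The log2 fold change at 28.6°C against 15.5°C was -1.10 (SE 0.15, adjusted p = 4.7e-06 by edgeR, Benjamini-Hochberg).

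Contig seq4 (2569 bases, 12.8% of the counts) was at 17.0, 18.6, 8.07, 17.0 and 16.6 CPM at 15.5°C and at 4.38, 1.92, 4.47, 8.64 and 4.68 CPM at 28.6°C, overlapping only through replicate 3 of 15.5°C and replicate 4 of 28.6°C. At 20°C it was between 3.51 and 8.46 CPM and at 25°C between 7.69 and 13.04 CPM. Its log2 fold change at 28.6°C was -1.63 (SE 0.30, adjusted p = 0.00018 from edgeR). Contig seq3 (2402 bases, 21.5%) was at 28.5, 12.9, 12.1, 12.1 and 27.3 CPM at 15.5°C and at 8.75, 14.4, 10.8, 14.8 and 5.53 CPM at 28.6°C, with overlap. At 20°C it was between 12.8 and 29.7 CPM and at 25°C between 10.6 and 19.2 CPM. Its log2 fold change at 28.6°C was -0.76 (SE 0.30, adjusted p = 0.0482 from edgeR), and this call was lost in 13 of the alternatives tried, with adjusted p up to 0.15. They include leaving out replicate 1 or 5 of 15.5°C (-0.56 and -0.59) or replicate 2 of 20°C. Leaving out replicate 1, 3, 4 or 5 of 25°C, or replicate 1, 3 or 5 of 28.6°C, had the same effect. The total count of seq3, before any division, was 76.1 to 82.3 CPM at 15.5°C. It was 32.9 to 39.7 CPM at 28.6°C, with no overlap.

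Contig seq2, the shortest at 345 bases, with 3.55% of the counts, is the only one of the 7 with reads mostly its own (398 unique of 431.6 estimated counts), and is named here for that. It shared a bundle with seq1 in 16 of 20 libraries. It was between 2.25 and 3.91 CPM at 15.5°C and between 0.80 and 2.93 CPM at 28.6°C, with a log2 fold change of -0.56 (SE 0.28, adjusted p = 0.108 from edgeR). Contigs seq5 and seq6 held at most 1.6 and 2.2 estimated counts in a library and were not retained. Of the 4 contigs tested besides seq1, 3 were lower at 28.6°C against 15.5°C by the adjusted p, where 22.6% of all contigs were, and 0 were higher. By the adjusted p and a 4-fold change 0 were called, also in DESeq2, in edgeR's likelihood ratio test and with an unadjusted p, where 6.66% of all contigs were called higher and 4.77% lower. Their median log2 fold change was -0.93, against 0.01 over all contigs tested. The 3 lower contigs share reads with each other and with seq1, so their calls are not independent.

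Spread between libraries was mostly larger for single contigs than for sums. Within a temperature the SD of seq1, seq3, seq4 and seq7 was between 9.67% and 50.2% of the mean, and that of the PGM sum between 2.93% and 6.59%. At 15.5°C the libraries with the highest seq3 (replicates 1 and 5) had the lowest seq7. For protein henna the SD of seq6 and seq2 was between 6.45% and 18.7% of the mean, and that of the henna-like sum between 4.45% and 11.002%. The longest mapped position, taken from the output of the counting program, was 188 in 8 libraries and 99 in 12. The sample labels do not say why, and all 5 libraries of 28.6°C were among those at 99. Among libraries of that set alone, the PGM sum was 99.2 and 105.4 CPM in the 2 libraries of 15.5°C and 44.9 to 53.2 CPM in the 5 of 28.6°C. In the same libraries the henna-like sum was 85.0 and 90.7 CPM against 153.6 to 205.9 CPM. Both differences were thus as large within the set.

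**Figure D5:**
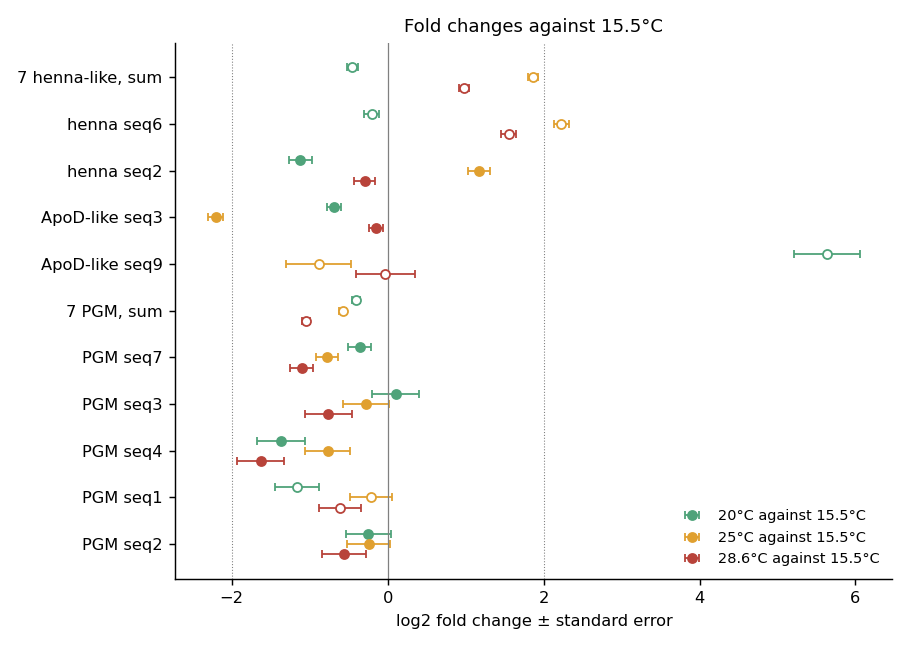
Log2 fold change ± standard error against 15.5°C for sums and contigs of both subcomponents (ApoD-like, apolipoprotein D-like). Open points are contigs chosen by the study, sums that hold one and ApoD-like seq9, for which no test is given, and dotted lines mark a 4-fold change. The henna-like sum lies at -0.45, 1.86 and 0.98 and the PGM sum at -0.40, -0.58 and -1.05 for 20, 25 and 28.6°C.

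Levels of single contigs of the 2 enzymes can be set side by side per length, though both rest on how shared reads were divided. In CPM per kilobase of effective length, henna seq6 averaged 17.6 ± 1.86 at 15.5°C and PGM seq7 22.0 ± 5.55 (SD, n = 5), with overlapping libraries. At 20°C they averaged 17.7 ± 1.43 and 18.3 ± 3.19, again overlapping. At 25°C seq6 stood at 85.1 ± 6.09 and seq7 at 12.9 ± 1.28, and at 28.6°C at 56.0 ± 5.81 and 10.4 ± 1.40. Per length, these 2 contigs thus overlapped at the cooler temperatures and lay apart at the warmer ones, and the sums over contigs went another way. Summed per kilobase, the henna-like contigs were between 32.1 and 38.7 and the PGM contigs between 110.7 and 150.1 at 15.5°C, with no overlap. At 28.6°C they were between 63.4 and 84.1 and between 45.2 and 99.4, with overlap. Short contigs weigh most in such sums, and PGM seq2 alone averaged 83.8 CPM per kilobase at 15.5°C. Which enzyme had more transcripts per length thus depended on the measure.

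Other transcripts of phenylalanine and tyrosine use were taken from the deposited annotation, which lists only transcripts that the study had found to change in these libraries, so their directions are no independent evidence. Of 9 contigs for 6 proteins, 3 were higher and 6 lower at 28.6°C than at 15.5°C by the adjusted p, with a median log2 fold change of -1.68, against 0.01 over all contigs, of which 23.4% were higher and 22.6% lower. Homogentisate 1,2-dioxygenase, which opens the ring of homogentisate in tyrosine breakdown, had 30.2 ± 2.16, 93.8 ± 3.06, 207.8 ± 9.43 and 86.7 ± 4.59 CPM from the coolest to the warmest temperature. Like the henna-like sum, it was highest at 25°C, but it was not lowest at 20°C. Tyrosine 3-monooxygenase, which makes DOPA from tyrosine, had 34.0 ± 1.5002, 11.4 ± 1.88, 52.3 ± 3.64 and 93.2 ± 7.79 CPM at the 4 temperatures in rising order. It was lowest at 20°C, as was the henna-like sum, and highest at 28.6°C. Xanthine dehydrogenase, an enzyme of purine and pterin oxidation, was higher at 28.6°C by a log2 fold change of 1.40. All 5 phenoloxidase contigs, for the enzymes that oxidise tyrosine and DOPA in melanin formation, were lower at 28.6°C, with log2 fold changes from -4.21 to -1.43. Protein yellow, a pigmentation protein, was lower by -2.20.

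A list for glucose phosphate, glycogen and trehalose, from the same source, held 25 contigs, of which 17 were retained. Its proteins were facilitated trehalose transporters, alpha-amylase, acid trehalase-like protein 1, mitochondrial enolase superfamily member 1 and enolase-phosphatase E1. Phosphoglucomutase, hexokinase, glycogen phosphorylase and glycogen synthase were sought by name, and none was found. Of the retained contigs, 6 were higher and 10 lower at 28.6°C, with a median log2 fold change of -0.91. Over all contigs, 23.4% were higher and 22.6% lower, with a median of 0.01. Of 9 retained contigs of the facilitated trehalose transporter Tret1, which carries the blood sugar of insects, 8 were lower and 1 higher, from -5.88 to 2.65. The most abundant, comp63446_c0_seq1, had 278.4 ± 2.28, 422.6 ± 19.4, 177.3 ± 11.4 and 103.0 ± 6.50 CPM in the same order of temperatures. Its highest libraries were those of 20°C, which was not so for PGM. Alpha-amylase, which cleaves starch, was lower at 28.6°C by -2.17. The other 5 contigs that rose, from 1.78 to 2.89, are of enolase-phosphatase E1, an enzyme of methionine salvage that the list took in by its name and that is not part of glycolysis.

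Markers of other tissues moved with the same temperatures. A fat body list of storage proteins (hexamerins, arylphorin, larval serum protein), vitellogenin, a yolk protein, and apolipophorin, a lipid carrier, summed to between 32454 and 40804 CPM at 20°C, where seq9 was high and protein henna low. It summed to between 3963 and 8724 CPM in the libraries of the other temperatures. Most of the sum at 20°C was larval serum protein (mean 28174 CPM) and arylphorin (7116 CPM). Vitellogenin and hexamerin-1.1 also had their highest mean at 20°C. Apolipophorin-3 (1462 CPM) and hexamerin comp64905_c0_seq4 (22.0 CPM) had theirs at 15.5°C, against 1170 and 14.7 CPM at 20°C. At 28.6°C against 15.5°C, 4 of the 6 contigs of the fat body list were lower and 1 higher by the adjusted p, which over all contigs held for 22.6% and 23.4%. Both digestive tract markers and both hemocyte markers (phenoloxidase subunits) were lower as well. The digestive markers summed to between 76.7 and 99.9 CPM at 28.6°C against 354.2 to 412.1 at 15.5°C, and the hemocyte markers to between 7.16 and 10.9 CPM against 38.0 to 41.3. The summed muscle list was between 3629 and 4387 CPM at 28.6°C against 2607 to 3169 at 15.5°C. Of its 17 retained contigs, 3 were higher and 9 lower, with a median log2 fold change of -1.25. Contig comp62634_c1_seq2, without a name in the annotation, rose from a mean of 1012 CPM at 15.5°C to 2301 CPM at 28.6°C. That was more than the rise of the whole list, from a mean of 2792 to 3963 CPM. No marker of these 4 lists was at 0 in all 5 libraries of a temperature. The part of these markers in the changes of protein henna and PGM was not tested.

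The transcripts whose levels followed the members most closely over the 20 libraries were mostly without a name in the deposited table. By Pearson's r of log2 CPM, with a mean of at least 10 CPM required, henna seq6 was most like comp57966_c0_seq1 (r = 0.98), comp58585_c0_seq1 (0.98) and comp60844_c1_seq1 (0.97). PGM seq1 had lower values, with comp65588_c3_seq19 (r = 0.81) first, comp63072_c2_seq4 (0.80) and comp63269_c0_seq1 (0.79). Among subcomponents, the PGM sum was most like comp56945_c1 (r = 0.99), comp61234_c0 (0.98) and comp57999_c0 (0.98), the last of which is protein yellow. The sum of comp64492_c0, which holds the apolipoprotein D-like pair, was most like comp57689_c0 (r = 0.98), comp64966_c6 (0.98) and comp62065_c2 (0.97). The henna-like sum had other matches, comp63073_c0 (r = 0.99), comp64854_c1 (0.98) and comp54170_c0 (0.97). These values describe libraries that share animals within a temperature.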

How the data were processed

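RNA of thoraces was sequenced from 20 pooled libraries, 5 at each of 4 temperatures. The authors trimmed reads (Trim Galore 0.3.0), assembled them with Trinity, mapped them (Bowtie2 2.0.6) and counted them per contig with eXpress 1.5.1. The deposited tables hold total counts (all reads that map to a contig) and unique counts (reads that map to it alone). They also hold estimated counts, in which the authors' eXpress run divided shared reads between contigs by probability, effective counts corrected for length and bias, and FPKM, which was not used in the tests. A deposited table of log2 values, centred per transcript by the authors, covers transcripts that they called with edgeR 1.2.4, and only its annotation was used, in which the PGM contigs are not listed. Depth is given with the samples, and counts cover reads, not molecules.

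Estimated counts were rounded after comp65386_c0, the ribosomal-like subcomponent, was removed. Contigs with at least 2 CPM in 4 libraries were tested with the quasi-likelihood test of edgeR 4.0.16 in R 4.3.3, with TMM factors, 1 coefficient a temperature over all libraries, a prior count of 2 and Benjamini-Hochberg adjustment over all contigs, or over all subcomponents for sums. SE is the absolute log2 fold change over the square root of F. Calls required an adjusted p below 0.05 with, where stated, a 4-fold change. Python 3.11.15 served for tables. Scripts were tested on simulated data.

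The members, the marker and pathway lists and the contigs described were chosen with earlier results of these data known. The rule named contigs with 10% or more of a subcomponent's counts and both target contigs, and the others are named after their values were seen. Replicate numbers were checked as pairs and were treated as a name only. Over 30 pairs of libraries that share a number between temperatures, deviations from the temperature means correlated at -0.02 to 0.05 (median 0.0087). Over 120 pairs with other numbers they correlated at -0.04 to 0.04 (median -0.0034). The alternatives were other scalings, filters, counts, tests and sets of libraries or contigs, DESeq2 1.42.0, and each library left out in turn.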

Additional observations from a re-analysis of the deposited data

Results flagged for a closer look

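Of 60 sets of 5 libraries examined (Dixon's test with a critical value of 0.71), 4 held a library apart from the others, and chance flags about 1 set in 20. Protein henna seq6 at 20°C had 34.7 CPM in replicate 4, the shallowest library, against 44.4 to 47.3 in the other 4. Apolipoprotein D-like seq9 at 25°C had 0.820 CPM in replicate 2 against 0.22 to 0.37 in the others. PGM seq4 had 8.07 CPM in replicate 3 of 15.5°C against 16.6 to 18.6 in the others. The same contig had 13.04 CPM in replicate 2 of 25°C against 7.69 to 8.56 in the others.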

How the results depend on the processing

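Of 334 alternative values for the main results, 312 kept their direction and side of the threshold or moved by less than the replicate spread, and 2 reversed. Of 1169 for the others, 1116 did so and 7 reversed. Unless stated, values are log2 fold changes at 28.6°C against 15.5°C, and causes of the changes were not tested.

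Without TMM factors, where the median of all subcomponents moved by -0.15, seq6 had 1.37, the comp64492_c0 sum 0.53, the henna-like sum 0.81 and the PGM sum -1.22. The step of PGM from 20 to 25°C turned to 0.20 for the sum and 0.10 without seq1, where the median of all subcomponents moved by 0.35. With unique counts, which hold 0% of reads in seq6 and PGM seq1 at every temperature, the comp64492_c0 sum and its contigs other than seq6 were both at -0.16, the PGM sum at -0.58 and the henna-like sum at -0.033. With them the henna-like sum was also at 0.0033 at 25°C and 0.73 at 20°C against 15.5°C, -0.73 at 25°C against 20°C and -0.76 at 28.6°C against 20°C, and both PGM sums were at 0.0092 at 25°C against 20°C. Of the 3843 unique counts of comp64492_c0, 3684 lay on the apolipoprotein D-like pair. Of the 399 of PGM, 398 lay on its contig seq2. Without a filter the PGM sum had -1.13. The contigs other than seq6 had -0.27 with effective counts, -0.21 with the set by longest mapped position as a covariate and -0.16 with the apolipoprotein D-like pair alone. None of these passed, nor did the -0.16 with unique counts. The 7 henna-like contigs alone gave 0.98 for the subcomponent. Effective counts put the share of PGM seq1 at 25°C at 9.84%.

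With the replicate number as a block, seq6 had 1.55, the henna-like sum 0.98, the comp64492_c0 sum 0.70, its contigs other than seq6 -0.23, PGM seq1 -0.66, the PGM sum -1.05 and the PGM contigs other than seq1 -1.10. The block ended the call of PGM seq3 alone (-0.68, edgeR adjusted p = 0.0839), and contigs past the adjusted p went from 7120 to 6956 higher and from 6868 to 6746 lower. In 7 of 20 libraries the best correlation was with the own number.

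Leaving out each library in turn gave 1.49 to 1.61 for seq6, 0.93 to 1.04 for the henna-like sum, 0.66 to 0.75 for the comp64492_c0 sum, -0.27 to -0.20 for its contigs other than seq6, -0.84 to -0.46 for PGM seq1, -1.08 to -1.02 for the PGM sum and -1.16 to -1.06 without seq1. Without replicates 1 and 4 of 20°C, the libraries rich in ribosomal-like reads, the PGM sum at 20°C against 15.5°C was -0.47. Contigs with almost no unique reads limit what their own levels can show.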
